A study of Homo sapiens with 4 samples.

Results

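The ZNF-named genes are human genes whose symbol is ZNF followed by digits and at most 1 letter. Names with -AS and pseudogene names ending in P were left out. The authors' deposited table holds 192 such genes among its 8727 genes. Every row of that table has an adjusted p under 0.05, so these are the ZNF genes that passed the authors' test, not all that were measured. RefSeq lists 512 names of this form, and 191 of the 192 names match one of them. Of the protein-coding ZNF genes of RefSeq, 191 of 509 (37.5%) are in the table, and of its other protein-coding genes 7320 of 19524 (37.5%) are.

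Messenger RNA was sequenced from 4 libraries of HepG2, an established human liver tumour line that the labels call hepatoblastoma. In 2 libraries the cells had received the solvent DMSO, and in the other 2 they had received 20 µM isoginkgetin, a plant biflavonoid known to inhibit pre-mRNA splicing, for 24 h. The authors' deposited table lists per gene a log2 fold change, its standard error (SE), p-values and the count averaged over all libraries after normalization. It carries no value per library, so total counts and the spread between single libraries are not analysed here. Which group is the numerator is not stated in it. "Higher" and "lower" stand for positive and negative log2 fold changes, read as isoginkgetin over DMSO, and every direction would turn if the order were the other way round. The labels do not say whether the replicates are separate cultures. The p-values thus measure only how far these libraries differ, which may be technical. Of 11 hepatocyte markers 10 are in the table, all of them lower and at a median mean normalized count of 23534.

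C2H2 zinc finger proteins form the largest group of human transcription factors. Each finger is a short loop held by a zinc ion between a pair of cysteines and a pair of histidines, and several fingers in a row read a stretch of DNA. Many of these proteins also carry a KRAB box, which recruits the corepressor TRIM28 and through it the histone methyltransferase SETDB1. This pathway is best known for silencing retroelements. Genes of the KRAB group arose by tandem duplication and stand in arrays, while ZNF genes without the box have varied roles in transcription, RNA handling and ribosome assembly.

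The members were more often higher than lower. Of the 192 members, 119 (62.0%) were higher and 73 were lower, beside 4374 (51.2%) higher among the 8535 other genes in the table. The table's p-values imply 20024 tested genes, of which 43.6% were called, 22.4% as higher and 21.1% as lower. How many ZNF genes were among the tested ones is not known, so the members' counts are read only as a split of those called. Their median log2 fold change was 0.47, and that of the other genes 0.21. The sign of the latter changed with the genes kept: it was −0.28 at an adjusted p under 0.001 and −0.18 at counts of 100 or more, where the members had 0.52 and 0.48. No list was tested as a set, and the splits are descriptions.

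The members' changes were about as large as those of other protein-coding genes. The median absolute log2 fold change was 0.70 in the members, 0.70 in the other genes and 0.65 in the other protein-coding genes. At mean normalized counts under 100 it was 1.08 in the members and 1.67 in the other protein-coding genes. At 100 to 300 it was 0.71 and 0.92, and at 300 to 1000 it was 0.57 and 0.64. At 1000 or more the order turned, with 0.53 and 0.49. A change of at least 2-fold was reached by 47 members (24.5%), beside 31.6% of the other genes and 25.9% of the other protein-coding ones. At that size the lean was gone, with 22 members higher and 25 lower. Over all tested genes 6.26% were called at least 2-fold higher and 7.43% at least 2-fold lower. The median was 0.65 among higher members and −0.72 among lower ones. The most extreme members lay at 2.0 and −2.40, whereas the other genes reached 9.59.

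**Figure D1:**
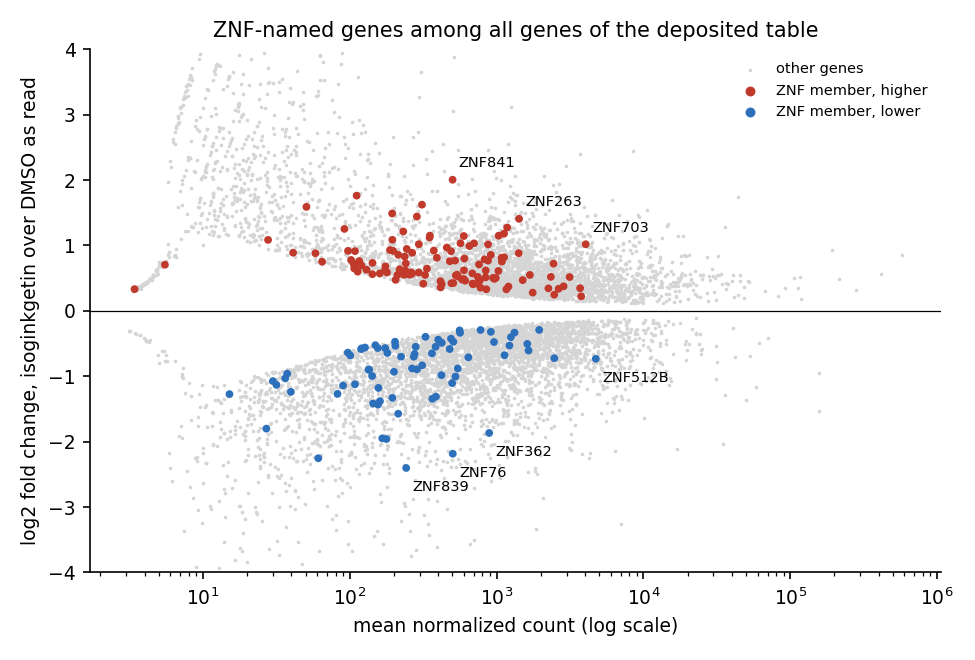
Log2 fold change (vertical axis, isoginkgetin over DMSO as read) against mean normalized count (horizontal axis, log scale) for 192 ZNF members (red higher, blue lower) and the other genes of the table (grey), of which 228 beyond ±4 lie outside the plot. The members sit between −2.40 and 2.0 and mostly at moderate levels, and the empty band around 0 is where genes did not pass the authors' test.

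Members had a lower median level than the rest of the table, with the gap in the upper part of the range. Their median mean normalized count was 356.8, with quartiles of 171.3 and 771.1. The other genes had a median of 756.6, with quartiles of 184.3 and 1875. Below a count of 100 lay 20 of the 192 members and 1625 of the 8535 other genes. Mean normalized counts are not divided by gene length and do not rank genes by transcript number. Higher members had a median of 479.7 and lower members of 265.0. Precision followed the level, with a median SE of 0.52 below a count of 100 and 0.093 at 1000 or more. The authors' log2 fold changes look like shrunken estimates, since fold change over SE was smaller than the normal deviate that each p-value stands for. The median ratio was 0.751 for members under 100 and 0.987 for those at 1000 or more, so the fold changes of members at low counts are not plain ratios of means.

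The gap in direction was widest at intermediate levels, where most members lie. At mean normalized counts of 100 to 300, 38 of 68 members (55.9%) were higher, beside 34.7% of 1024 other genes. At 300 to 1000 the share was 48 of 71 (67.6%) beside 43.0% of 2274. Across this whole span the median log2 fold change was 0.49 in 139 members and −0.47 in 3298 other genes. At 1000 or more, 24 of 33 members (72.7%) and 57.8% of 3612 other genes were higher. Below 100 the order turned, with 9 of 20 members (45%) beside 58.6% of 1625. With the other genes limited to protein-coding symbols the shares were 30.6% at 100 to 300 and 42.5% at 300 to 1000.

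**Figure D2:**
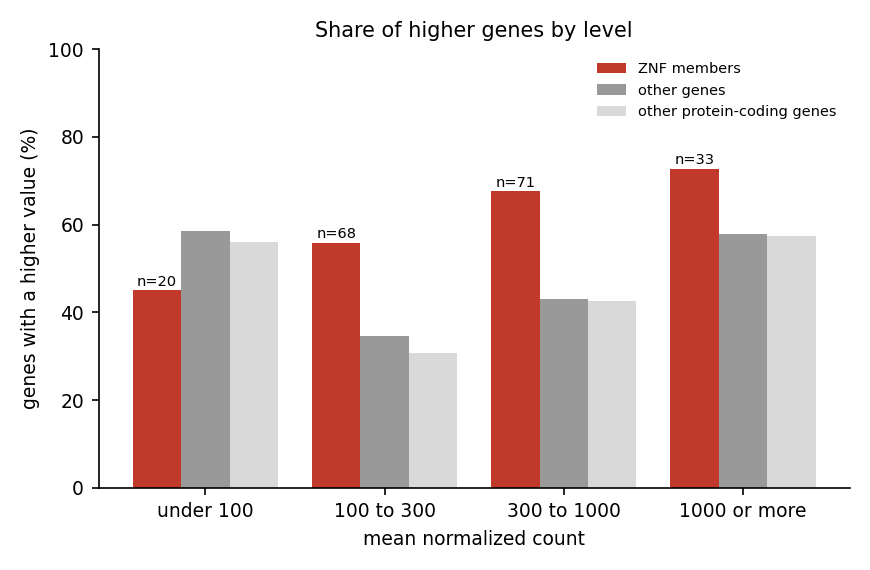
Share of genes with a positive log2 fold change (vertical axis, percent) in 4 ranges of mean normalized count (horizontal axis) for ZNF members (red, their number above the bar), all other genes of the table (dark grey) and other protein-coding genes (light grey). The red bar is above both grey bars in the 3 ranges from 100 upward and below them under 100.

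Among members with counts of 100 or more, ZNF841 was the highest. The authors' deposited table gives ZNF841 2.0 on the log2 scale (SE 0.16, adjusted p 1.89e-37) and a count of 501.2. ZNF165, which carries a SCAN box for pairing with other SCAN proteins and is known from testis and tumours, had 1.76 (SE 0.32) according to the authors' deposited table. The authors' deposited table puts ZNF432 at 1.62 (SE 0.19), ZNF460 at 1.49 (SE 0.24) and ZNF26 at 1.44 (SE 0.20). All 3 encode KRAB proteins by the profile used here.

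Other members of this upper group have roles that are better known. ZNF263, with a SCAN box and a KRAB box, stood at 1.41 (SE 0.094, adjusted p 9.65e-50) and a count of 1422 in the authors' deposited table. ZNF746, also called PARIS, is a repressor of PPARGC1A and a substrate of the ubiquitin ligase parkin. The authors' deposited table gives it 1.27 (SE 0.11, adjusted p 1.03e-29). ZNF622, a cytoplasmic factor of late 60S ribosome assembly, had 1.18 (SE 0.10, adjusted p 2.64e-29) according to the authors' deposited table. ZNF77 at 1.21 (SE 0.21) and ZNF805 at 1.15 (SE 0.17) close the upper 10 of the authors' deposited table.

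The lowest member was ZNF839, for which the authors' deposited table has −2.40 (SE 0.26, adjusted p 2.8e-20). Of its reference transcript, 34.2% of all 50-base windows also occur in a transcript of another gene, so its reads cannot all be told from theirs. ZNF76, the close relative of ZNF143, stood at −2.19 (SE 0.15, adjusted p 7.18e-45) according to the authors' deposited table. ZNF143, an activator of small nuclear RNA genes and many coding genes, was at 0.42 (SE 0.14) there, so these relatives lie on opposite sides in the authors' deposited table. ZNF362 had −1.87 (SE 0.12, adjusted p 1.67e-51) at a count of 889.7 in the authors' deposited table. ZNF395, a factor linked to hypoxia and interferon responses, was at −1.34 (SE 0.17) by the authors' deposited table, with 41.7% of its windows shared.

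The rest of the lower 10 held 4 KRAB genes. The authors' deposited table gives ZNF429 −1.96 (SE 0.26), ZNF69 −1.95 (SE 0.27), ZNF43 −1.57 (SE 0.24) and ZNF254 −1.38 (SE 0.26). The authors' deposited table has ZNF775 at −1.43 (SE 0.27) and ZNF594 at −1.42 (SE 0.29). Neither has a KRAB box, and 22.3% of the windows of ZNF775 are shared. Below the count of 100 ZNF320 reached −2.25 (SE 0.45) according to the authors' deposited table. With 99.5% of its windows shared with other genes, its value is uncertain.

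**Figure D3:**
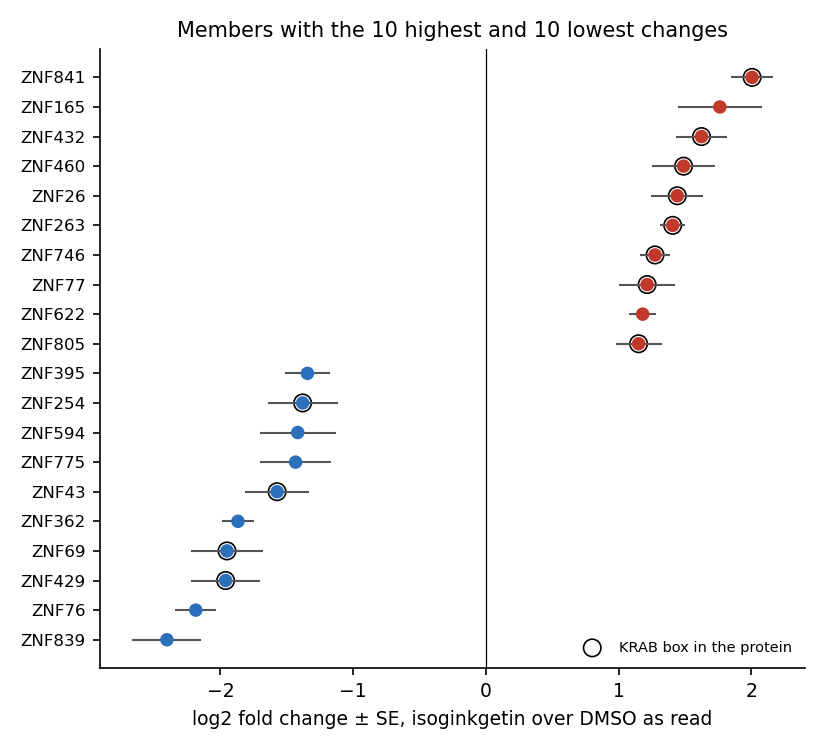
Log2 fold change with its SE as bars (horizontal axis) of the 10 highest (red) and 10 lowest (blue) members with counts of 100 or more, with genes on the vertical axis and a ring around those with a KRAB box. ZNF841 at 2.0 and ZNF839 at −2.40 mark the ends, and 8 of the upper 10 and 4 of the lower 10 carry the ring, beside 111 of all 192 members.

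Members that act on RNA or ribosomes were higher with a single exception. Of 10 listed genes of this group 8 are in the table, 7 of them higher and 1 lower (median 0.35). Of the 8, 5 had counts of 1000 or more, where 72.7% of all members and 57.8% of the other genes were higher, and 43.6% of all tested genes were called. Besides ZNF622, the sizes were small. ZNF598, the ubiquitin ligase that senses collided ribosomes, had 0.34 (SE 0.087) according to the authors' deposited table. The authors' deposited table gives 0.38 (SE 0.076) for ZNF638, an RNA-binding splicing regulator, and 0.35 (SE 0.12) for ZNF326, which couples elongation of transcription to splicing. ZNF207, known as the spindle protein BuGZ and also bound to splicing factors, was at 0.35 (SE 0.068) according to the authors' deposited table, at a count of 3704. ZNF106, an RNA-binding protein, stood at 0.34 and ZNF706 at 0.51 in the authors' deposited table. The exception was ZNF346, which binds double-stranded RNA, at −0.58 (SE 0.15) according to the authors' deposited table.

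Transcription factors and cofactors from a list meant for proteins without a KRAB box split like the members as a whole. Of 28 listed, 16 are in the table, 10 higher and 6 lower, with a median of 0.39. Over all tested genes 43.6% were called. ZNF263 is on this list although the profile finds a KRAB box in it. ZNF703, a cofactor amplified in breast cancer, had 1.02 (SE 0.086, adjusted p 3.4e-31) at a count of 4044 in the authors' deposited table. ZNF131 at 0.79 (SE 0.12) and ZNF384 at 0.77 (SE 0.12) followed in the authors' deposited table, and 53.2% of the windows of ZNF384 are shared. In the authors' deposited table ZNF24, a SCAN protein, was at 0.52, ZNF292 at 0.50, ZNF652 at 0.42, ZNF335 at 0.37 and ZNF148 at 0.33.

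On the lower side of that list, ZNF512B has −0.73 (SE 0.061, adjusted p 1.06e-31) by the authors' deposited table. With a count of 4737 it is the member of highest level. ZNF687, a partner of the chromatin reader ZMYND8, was at −0.53 (SE 0.10), ZNF318 at −0.33 and ZNF516 at −0.29 in the authors' deposited table. The remaining members of very high level were ZNF146 at 0.52 (SE 0.080) and ZNF664 at 0.22 (SE 0.064) according to the authors' deposited table.

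KRAB repressors with a known target or role split evenly. Of 12 listed 8 are in the table, 4 higher and 4 lower, while 43.6% of all tested genes were called. ZNF274, which marks the 3′ ends of other ZNF genes with repressive chromatin, was at 0.57 (SE 0.12) according to the authors' deposited table. The authors' deposited table gives 0.53 (SE 0.14) for ZNF202 and 0.56 (SE 0.27, adjusted p 0.042) for ZNF350, a partner of BRCA1. ZNF91, which represses SVA retroelements, was at −0.30 (SE 0.13, adjusted p 0.0484) according to the authors' deposited table, close to the threshold. ZNF445, a keeper of genomic imprints, was at −0.40 (SE 0.10), ZNF300 at −0.57 (SE 0.26) and ZNF764 at −0.65 (SE 0.17) according to the authors' deposited table.

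The proteins of the members were sorted by their domains, found in the coding sequences of GENCODE release 29. A KRAB box was found in 111 of the 192 members, out of 332 ZNF-named genes with a box among 509 protein-coding ones (33.4%). Of the 177 without a box 45.8% are in the table. KRAB members were higher in 70 of 111 cases (63.1%, median 0.55), and members without the box in 49 of 81 (60.5%, median 0.35). The order of these shares turned with a stricter KRAB profile (61.7% and 62.4%), at an adjusted p under 0.001 (61.4% and 67.3%) and with Bonferroni (63.9% and 66.7%). At 2-fold or more, 13 KRAB members were higher and 15 lower. The KRAB members were of lower level, with a median mean normalized count of 238.8 against 602.8. At counts of 100 to 300, 35 of 56 KRAB members but 3 of 12 without the box were higher. At 300 to 1000 these counts were 22 of 34 and 26 of 37, and at 1000 or more 7 of 8 and 17 of 25. A SCAN box was found in 10 members, of which 7 were higher.

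Finger number did not order the changes. The members held a median of 10 fingers and at most 32, the latter in ZNF91. The pattern used found no finger in 5 members, ZNF839 and ZNF703 among them, and 3 of the 5 were higher. With 1 to 4 fingers 17 of 30 members were higher, and with 5 to 9 it was 35 of 53. With 10 to 14 it was 39 of 61, and with 15 or more 25 of 43. Across the 192 members Spearman's rho between finger number and log2 fold change was 0.019, and with the length of the coding sequence −0.0053. With the genomic span of the gene it was −0.16, beside −0.15 across 7119 other coding genes. Number of exons gave −0.084 in the members and −0.15 in the others. These relations run across genes of the same 4 libraries, which are not independent replicates.

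**Figure D4:**
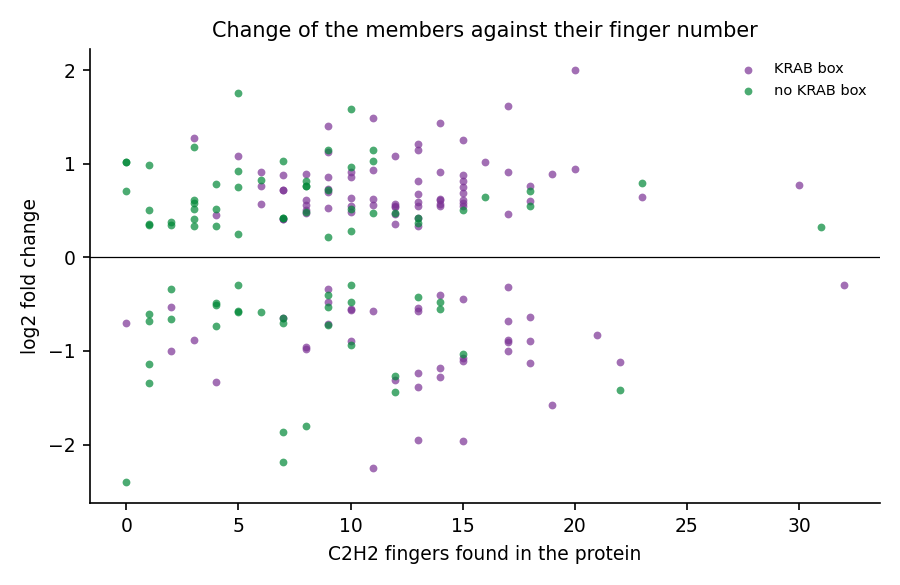
Log2 fold change (vertical axis) of 192 members against the number of C2H2 fingers found in the protein (horizontal axis), with KRAB members in purple and the others in green. Higher and lower members occur over the whole range of finger numbers, and KRAB members lie further to the right.

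Neighbouring members mostly moved in the same direction. Protein-coding genes were put in order by the RefSeq table of GRCh38.p14, which was used only for neighbourhood because it is not a build named for these data. There were 21 runs of directly adjacent members, holding 56 genes. In 29 of 35 adjacent pairs (82.9%) both members had the same direction. Over all 18336 pairs of members the share was 52.6%, and over 2980 adjacent pairs of other coding genes in the table it was 53.3%. Of the 21 runs, 10 were all higher, 6 all lower and 5 mixed. Tandem copies share sequence, and the library kit keeps no strand, so that reads of neighbours and of overlapping genes cannot always be told apart. In the 14 adjacent pairs in which both members share under 5% of their windows with other genes, 12 had the same direction.

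The longest run joins 5 genes, all higher, and ends with ZNF841. In order they read 0.56 for ZNF350, 0.89 (SE 0.20) for ZNF615, 0.49 (SE 0.11) for ZNF614, 1.62 for ZNF432 and 2.0 for ZNF841 in the authors' deposited table. A run of 4 also held higher genes only, with 1.15 for ZNF805, 1.49 for ZNF460, 0.68 (SE 0.24) for ZNF543 and 1.02 (SE 0.20) for ZNF304 in the authors' deposited table. Another held ZNF560, ZNF426, ZNF121 and ZNF561. ZNF121, an interactor of MYC, had 0.72 (SE 0.083, adjusted p 1.94e-17) at a count of 2442 in the authors' deposited table. The authors' deposited table gives 0.54 (SE 0.14) for ZNF426, 0.62 (SE 0.12) for ZNF561 and 0.33 (SE 0.70) for ZNF560. At a count of 3.42 the value of ZNF560 carries little weight.

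The other runs of 4 were mixed. In the authors' deposited table ZNF747 stood at −1.33 (SE 0.24), ZNF764 at −0.65 and ZNF688 at −1.0 (SE 0.28), next to ZNF768 at 0.28 (SE 0.088). All windows of ZNF747 (100%) occur in another gene's transcripts. In the last run ZNF320, ZNF888 at −0.88 (SE 0.21) and ZNF28 at −0.44 (SE 0.16) were lower and ZNF468 at 0.62 (SE 0.13) was higher in the authors' deposited table.

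Longer stretches in which every protein-coding gene is ZNF-named held a single direction in some cases and both in others. There are 11 such arrays of at least 8 genes, with 156 genes, of which 52 are in the table, 36 higher and 16 lower. Of all protein-coding ZNF genes of RefSeq 37.5% are in the table, and 43.6% of all tested genes were called. Of the 10 arrays with more than 1 gene in the table, 6 held both directions. This share cannot be set against that of the runs, of which 13 have only 2 genes. A stretch with more genes has more room for both directions. The array from ZNF627 to ZNF791 had the most genes in the table, 5 higher and 3 lower. Those starting with ZNF766 and ZNF101 each had 1 higher and 2 lower, that starting with ZNF551 had 5 and 1, and those starting with ZNF177 and ZNF786 had 4 and 1. The other 4 held a single direction. In the array from ZNF737 to ZNF681, 5 of 27 genes are in the table and all were lower (median −1.27). They are ZNF429, ZNF43 and ZNF91, named above, with ZNF66 at −1.27 (SE 1.0) and ZNF85 at −1.07 (SE 0.68) according to the authors' deposited table. Both of the last have counts of 30 or less, and they were named after their values were seen. By contrast the arrays from ZNF283 to ZNF180 and from ZNF566 to ZNF793 each have 5 of 20 genes in the table, all higher, with medians of 0.76 and 0.78. In the array from ZNF577 to ZNF836 all 6 of 10 were higher (median 0.80). The genes of these arrays that are not in the table have no value here.

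**Figure D5:**
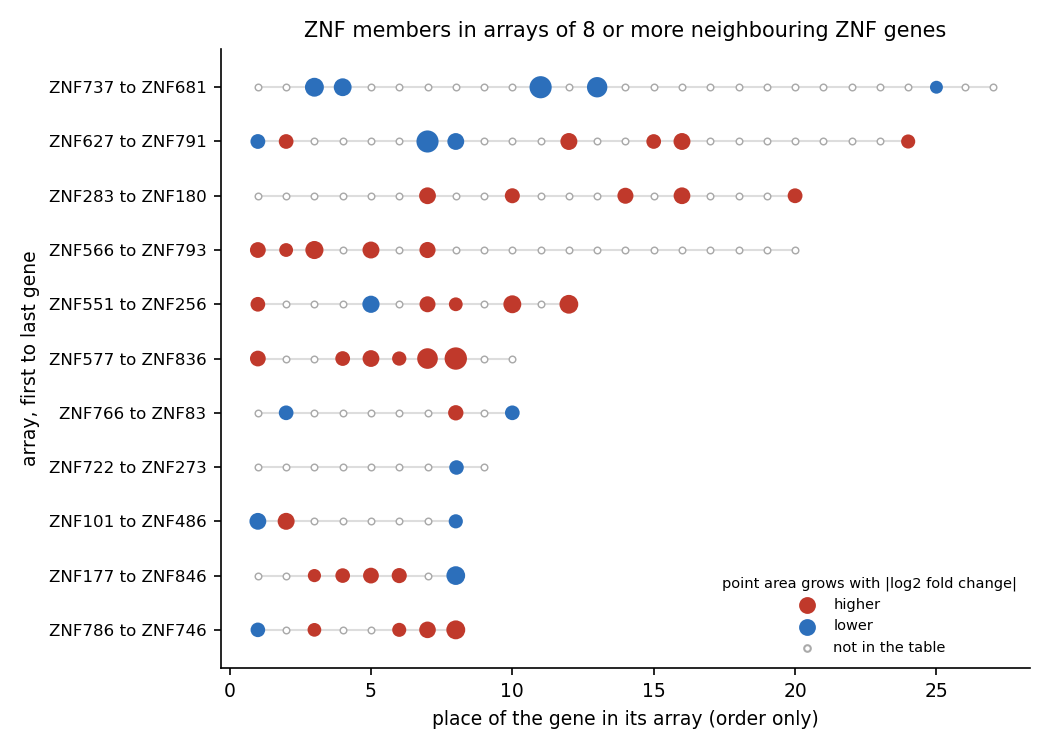
Members in the 11 arrays of at least 8 neighbouring ZNF genes, with each array on a line from its first to its last gene (horizontal axis, place in the array), red points for higher, blue for lower and open points for genes that are not in the table. Point area grows with the absolute log2 fold change, and the top array shows 5 blue points while the ZNF283, ZNF566 and ZNF577 arrays show red points only.

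Promoter sequences of 3 of the 4 neighbours from ZNF560 to ZNF561 are shown because they hold the same element. RefSeq windows of 300 bases on GRCh38.p14, from 250 bases before to 50 after a gene's start, were matched for 163 members. The first listed window of a gene was used, and 17 motifs were searched on both strands, and the motifs and stretches given here were picked after their values were seen. ZNF426, ZNF121 and ZNF561 each hold TGACGTCA, the palindromic cAMP response element (CRE), just upstream of their start. The 250 bases before the start of ZNF560, the remaining gene of that run, do not hold these letters. The following stretches end at the base before the start, run 5′ to 3′ along the gene, and have the element in capitals. They lie on the minus strand at chr19:9538646-9538765, chr19:9584505-9584624 and chr19:9621233-9621352.
ZNF426: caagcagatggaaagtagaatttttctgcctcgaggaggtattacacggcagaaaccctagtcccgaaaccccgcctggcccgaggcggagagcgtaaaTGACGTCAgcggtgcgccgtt
ZNF121: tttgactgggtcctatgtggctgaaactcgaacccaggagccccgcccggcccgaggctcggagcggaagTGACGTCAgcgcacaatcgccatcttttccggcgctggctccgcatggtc
ZNF561: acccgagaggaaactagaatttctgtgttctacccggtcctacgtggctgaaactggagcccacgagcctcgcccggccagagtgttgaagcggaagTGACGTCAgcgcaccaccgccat

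The element occurred in the windows of 8 of 105 higher members (7.62%) and 1 of 58 lower members (1.72%), and in 2.59% of 15842 protein-coding genes. Among the other genes of the table it was found in 4.33% of those higher and 2.56% of those lower. The 8 include the 3 neighbours shown, so the count is not one of independent genes. The shorter TGACG, which lies within the CRE, was in 43.8% of higher and 24.1% of lower members, beside 40.7% and 28.1% of the other higher and lower genes.

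Other motifs differed in frequency between ZNF promoters and those of all protein-coding genes. CCGGAAG, the core bound by ETS factors, was found in 37.1% of higher and 34.5% of lower members, 39.8% of 430 ZNF coding genes and 14.2% of all protein-coding genes. Among the other genes of the table it was in 24.0% of those higher and 14.5% of those lower. The SBS core, part of the sequence bound by ZNF143, was in 11.9% of ZNF coding genes and 2.93% of all protein-coding genes. It was in 13.3% of higher and 6.90% of lower members, beside 4.16% and 3.98% of the other higher and lower genes. TATAAA was rare, in 2.45% of members against 9.63% of all protein-coding genes. The other genes of the table lay between, with 6.59% of those higher and 4.91% of those lower. The ETS core is shown in the higher ZNF432 and the lower ZNF43, again in capitals and up to the base before the start, on the minus strand at chr19:52048839-52048958 and chr19:21836183-21836302. In ZNF43 it is read on the opposite strand.
ZNF432: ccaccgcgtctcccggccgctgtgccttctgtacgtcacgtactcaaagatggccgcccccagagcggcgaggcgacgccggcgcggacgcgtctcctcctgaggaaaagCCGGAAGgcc
ZNF43: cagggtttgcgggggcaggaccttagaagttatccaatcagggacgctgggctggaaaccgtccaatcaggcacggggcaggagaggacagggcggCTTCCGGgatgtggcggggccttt
A match is a description of the letters and shows neither binding nor a cause.

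The partners of KRAB proteins were lower somewhat more often than the rest of the table. Of 30 listed corepressor and heterochromatin genes 17 are in the table, 7 higher and 10 lower (58.8%), with a median of −0.26. Of the other genes listed, 48.8% were lower, and 43.6% of all tested genes were called. TRIM28 and SETDB1, through which the KRAB box acts, are not among them and have no value here. The largest changes belonged to MTA1, a subunit of the NuRD deacetylase complex, at −1.26 (SE 0.078), and UHRF1, which guides DNA methylation to replicated DNA, at −1.15 (SE 0.069) according to the authors' deposited table. TASOR, listed as FAM208A, the scaffold of the HUSH silencing complex, was at −0.60 (SE 0.089) according to the authors' deposited table. The highest were MTA2 at 0.54 (SE 0.064) and PPHLN1, another HUSH subunit, at 0.36 (SE 0.091) according to the authors' deposited table; these, chosen after their values were seen, fall outside the rule for named genes.

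Among zinc finger families with other names, ZBTB genes were mostly higher, while the other families had few genes in the table and no clear lean. RefSeq lists 41 ZBTB, 21 ZSCAN, 7 ZKSCAN and 19 ZFP names, and 43.6% of all tested genes were called. Of 23 ZBTB genes in the table, whose proteins carry a BTB dimerization domain, 16 were higher (median 0.60). ZSCAN genes were higher in 5 of 9 cases (55.6%, median 0.47), ZKSCAN genes in 3 of 5 (median 0.31) and ZFP genes in 1 of 3 (median −0.84). Together 25 of these 40 genes (62.5%) were higher, 16 of them ZBTB genes. The share was 62.0% among the ZNF members and 51.2% among all genes of the table outside the members. At 2-fold or more 1 of the 40 was higher and 5 were lower.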

How the data were processed

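Per the submitters' processing notes, STAR 2.7.0 and featureCounts were used, with the builds hg19 and mm10 named without a role. The sources used here give no annotation, no setting for shared reads and no depth per library. Per the labels' protocols, libraries were made from polyadenylated RNA with a non-directional kit. The authors deposited 1 table of their own comparison; per the file headers its columns are those of a DESeq2 results table. The authors' deposited mean normalized count is a signal averaged over the libraries. Fold changes and SEs were deposited as log2 values. Each gene also has a deposited p-value, raw and adjusted, and 20024 tested genes were recovered from adjusted p times rank over p. No model was fitted here, and the values per library that a count test needs are not analysed here, so the authors' results stand in its place.

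Members were found by name (pandas 2.3.3). KRAB and SCAN boxes were called with HMMER 3.4 profiles built from 235 and 37 human proteins with the core letters of each box, at an E-value under 1e-05. C2H2 fingers were counted as a pair of cysteines 2 to 4 residues apart, 12 residues, and a pair of histidines 3 to 5 residues apart. Shared windows are runs of 50 bases of the chosen GENCODE 29 transcript found, on either strand, in another gene's transcripts; readthrough names were left out. The recovery of the number of tested genes was tested on simulated data, and the name rule on example names. The other steps were not tested in this way. Named members are the 10 highest and 10 lowest with counts of 100 or more, the 5 of highest level, members of 3 role lists and of the longest neighbour runs (the runs of 4 tie, so 5 runs were taken), and the 3 KRAB partners with the largest changes. Members and lists were chosen with earlier results of these data known.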

Additional observations from a re-analysis of the deposited data

How the results depend on the processing

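Results were recomputed with stricter thresholds, by size, level, centring, name rule, 1 member per run of neighbours and a stricter KRAB profile. Limiting the other genes to protein-coding symbols, leaving out members with shared windows, and the stricter threshold for the KRAB partners were added after seeing the data. The share of higher members lay between 60.0% and 65.3% except at 2-fold or more, where it was 46.8%, beside 45.7% of the other genes. There 22 were higher and 25 lower, with 46.4% of KRAB and 47.4% of other members higher. The members' median log2 fold change turned to −1.03, beside −1.06 in the other genes. Its sign only repeats the 22 and 25, and the cutoff keeps it away from 0. The median level was 213.7 in the members and 114.9 in the other genes. At an adjusted p under 0.001, 70 were higher and 39 lower (median level 538.0, background 29.2%). With Bonferroni 47 were higher and 25 lower (median 0.72, level 598.2, background 21.7%), and 36 of 64 named members passed. At 1.5-fold 72 were higher and 48 lower (median 0.65). Centring on the table's median of 0.21 gave a median of 0.25; it could not change the counts, since no member lies closer to 0 than 0.22. The median of the other genes was −0.28 at an adjusted p under 0.001, −0.35 with Bonferroni, −0.18 at counts of 100 or more and −0.64 at 1.5-fold. With under 5% shared windows, 47 were lower and 82 higher. The KRAB partners were lower in 80.0% of cases at an adjusted p under 0.001, beside 58.8% of 17 as reported. The 80.0% rests on fewer genes than these 17, with MTA2 and PPHLN1 as the only higher ones. At that stricter threshold 49.4% of the other genes were higher and the rest lower. No paired analysis was possible because the table holds no value per library, and for the same reason leaving out replicates, other normalizations and count tests were not run.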
